A study of Mus musculus with 22 samples.

Results

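RNA of 2 states taken as YAP1 off was compared, hbHep against hepatoblastoma tumors 6 days off doxycycline. The series' title describes hbHep as hepatocyte-like cells that arise from hepatoblastoma. Yap1 RNA was present in both states, as given below. The samples were chosen by their labels and were 10 of the 22 in the series: 6 libraries of 3 hbHep mice, which are 2 technical libraries a mouse averaged to 1 value, and 4 tumors of a single mouse. The hbHep mice carry the genotype FAH Delta Exon 5, a deletion in the gene of the last enzyme of tyrosine breakdown, and are labelled day 121, 114 and 117 for mice 1, 2 and 3. The day 6 tumors come from a B6N.FVB(Cg) strain with the transgene Tg(CAG-rtTA3)4288Slowe/J, in which the widely active CAG promoter drives rtTA3, a transcription activator that works only with doxycycline. Tissue of both groups is labelled liver. The labels do not say whether the hbHep mice received doxycycline or NTBC, a drug that protects animals without Fah, nor do they give sex or age of any animal.

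Values of the other 2 RNA groups are given for orientation only. They are 4 tumors of 1 mouse of the same strain as the day 6 tumors, with YAP1 on (YAP1on tumors), and liver of 3 FAH Delta Exon 5 mice kept on NTBC (FAH liver). Strain, genotype, mouse and time all differ together between hbHep and the day 6 tumors and cannot be told apart. The fit pools the spread within all 4 RNA groups. The p-values thus set the hbHep difference against spread among mice (hbHep, FAH liver) and among tumors of single animals (day 6, YAP1on). Since the 4 day 6 tumors share 1 mouse, spread among mice with such tumors is not measured.

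YAP1 is a transcription coactivator that enters the nucleus and binds TEAD factors when the kinases of the Hippo pathway are inactive, and it drives growth of the embryonic liver. Hepatoblastoma is a liver tumor that resembles fetal liver, often with active beta-catenin, the effector of Wnt signaling. In adult liver, Wnt signals from the central vein set a pericentral program in nearby hepatocytes, while periportal hepatocytes make urea and glucose. Many mouse liver genes also follow sex, through the sex-specific rhythm of growth hormone release. The redox factor NRF2 and the amino acid stress factor ATF4 each switch on a known set of protective enzymes.

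Abundance here is the deposited signal per gene after rescaling of libraries. Across all genes tested, samples correlated at 0.9710 to 0.9815 among the hbHep mice and at 0.9817 to 0.9854 among the tumors, and at 0.8837 to 0.9024 between the groups. The technical libraries of 1 mouse, taken singly, correlated at 0.9766 to 0.9814. The values among hbHep mice are for means of 2 libraries, so these ranges are not like measures. Of the 631 genes with a 4-fold or wider range among hbHep mice, mouse 2 was the farthest from the median in 351 (55.6%). Mitochondrial transcripts took 3.54 to 4.24% of the signal in hbHep and 7.23 to 8.40% in the tumors. Of 17958 genes tested, 4334 were higher in hbHep (24.1%) and 3895 were lower (21.7%) at an adjusted p under 0.05. Differences of at least 2-fold made up 10.5% and 10.1% of all genes. Every hbHep mouse lay above every tumor in 26.5% of genes and below in 25%. The shares of 24.1% higher and 21.7% lower are the background for all counts of list members given below.

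Hepatocyte identity was checked first. The 6 hepatocyte markers were Alb, Ttr, Apoa1, Apob, Hnf4a and Serpina1a. They summed to an abundance of 444457 to 647657 in hbHep and 494730.2 to 617882 in the day 6 tumors. These ranges overlap, but single members moved both ways, with Alb higher and Serpina1a lower in hbHep, as given below. The 5 bile duct markers summed to 998 to 1395 in hbHep and 2551 to 7448 in the tumors. In bulk tissue, fewer cells of a type and less RNA per cell cannot be told apart. The 4 pancreas or gut markers summed higher in hbHep, to 499.9 to 584, than in the tumors, at 269 to 377. In FAH liver they summed to 583 to 829.5. Of these markers, the pancreas gene Cpa1 was listed at 0 in every sample of hbHep and of the tumors.

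Yap1 itself (gene ENSMUSG00000053110) did not separate the groups. Its abundance was 932, 1147 and 1309.5 in hbHep mice 1, 2 and 3 and 1254, 1166, 1166 and 1097 in day 6 tumors 1 to 4, beside 8444 ± 2418 (SD, n = 4) in YAP1on tumors and 1265 ± 110.1 (SD, n = 3) in FAH liver. The ranges overlap (log2 fold change -0.06, 95% interval -0.48 to 0.35, adjusted p = 0.809, exact permutation p = 0.714). Ctnnb1, which encodes beta-catenin, lay at 4954, 4446 and 4609 in hbHep mice 1, 2 and 3 and 11769, 12967, 14226 and 11908 in day 6 tumors 1 to 4. Every hbHep mouse was below every tumor (log2 fold change -1.44 ± 0.15 (SE), adjusted p = 1.92e-06, exact permutation p = 0.0286, no smaller p being possible with 3 mice and 4 tumors). Fah had an abundance of 1152, 674 and 963 in hbHep mice 1, 2 and 3 and 5013, 5824, 4347 and 4944 in day 6 tumors 1 to 4. It was lower in all hbHep mice (log2 fold change -2.46 ± 0.19 (SE), adjusted p = 1.19e-07, exact permutation p = 0.0286). In FAH liver, which carries the same deletion, Fah stood at 1648 ± 154 (SD, n = 3), and a deletion of 1 exon leaves the rest of the transcript to be counted, so this level does not check the genotype.

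Of 20 Hippo pathway components, 1 was higher in hbHep and 8 were lower (median log2 fold change -0.25, against -0.02 over all genes). The share lower was above that of 21.7% over all genes and the share higher below 24.1%. Tead4, one of the DNA-binding partners of YAP1, had an abundance of 15.7, 20.8 and 14.5 in hbHep mice 1, 2 and 3 and 148, 85.9, 136 and 72.5 in day 6 tumors 1 to 4 and was lower (log2 fold change -2.59 ± 0.32 (SE), adjusted p = 1.44e-05). Tead2, a partner prominent in embryos, was also lower (-1.22 on the log2 scale, adjusted p = 0.00203). Wwtr1, which encodes TAZ, the paralog of YAP1, was the member that was higher, at 2227 to 2734 in hbHep and 1322 to 1555 in the tumors (log2 fold change 0.74 ± 0.11 (SE), adjusted p = 8.54e-05). Of 24 YAP1 target genes, 5 were higher and 3 were lower, shares at or under the background. The classical targets Ccn1 and Ccn2 had log2 differences of -0.36 and -0.21 and did not pass. Ankrd1, another commonly used target, was lower at 19.2 to 26.0 in hbHep and 47.4 to 232 in the tumors (log2 fold change -2.39 ± 0.60 (SE), adjusted p = 0.00455). Nt5e, which encodes the cell surface enzyme CD73, was higher at 2471 to 4422 in hbHep and 903 to 1216 in the tumors (log2 fold change 1.66 ± 0.23 (SE), adjusted p = 4.01e-05). In both genes the groups did not overlap. Areg, which encodes the growth factor amphiregulin, had the largest difference of the list, at 22.5, 117 and 14.8 in hbHep mice 1, 2 and 3 and 1.55, 0.87, 0.73 and 0.00 in day 6 tumors 1 to 4 (log2 fold change 4.38 ± 0.67 (SE), adjusted p = 9.26e-05). Without hbHep mouse 2, Ccn1 passed at an adjusted p of 0.0264. Hippo pathway components higher in hbHep numbered 2 without hbHep mouse 2. YAP1 target genes lower in hbHep numbered 1 without tumor 2. Areg had a log2 fold change of 3.51 when hbHep mouse 2 was left out. With a pseudocount of 10 that of Areg was 2.12. Without rescaling of libraries, 5 Hippo components and 1 YAP1 target were lower.

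**Figure D1:**
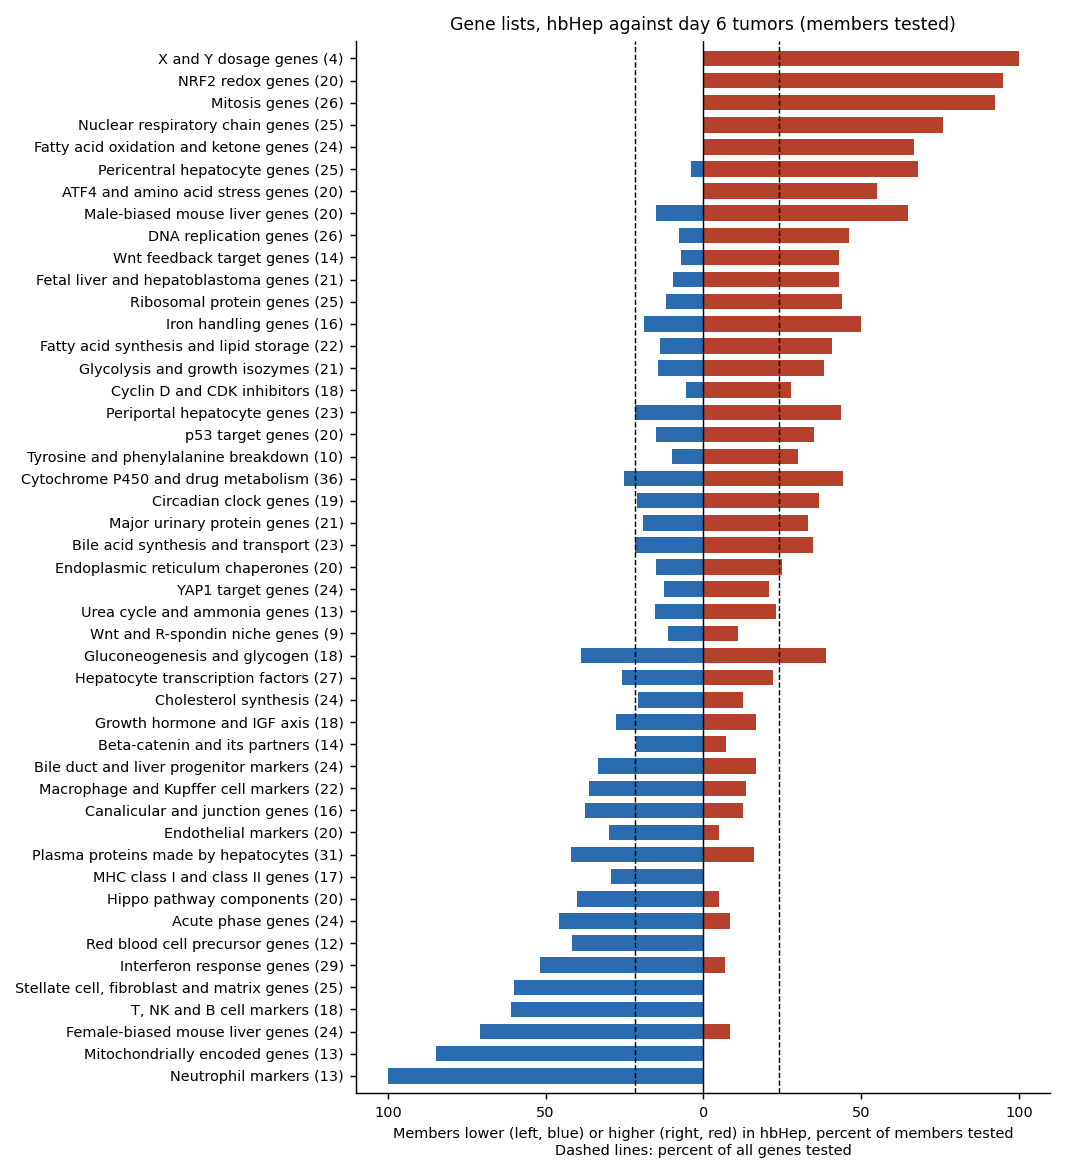
Share of each gene list's tested members that was higher (red, right) or lower (blue, left) in hbHep than in day 6 tumors, in percent, with the number of members tested in brackets and dashed lines at the shares over all genes (24.1% and 21.7%). NRF2 redox and mitosis genes are almost wholly on the right, and neutrophil markers and mitochondrially encoded genes on the left.

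Genes that mark sex in mouse liver held the largest rise and the largest fall among the named genes. Of the 20 male-biased genes tested, 13 were higher in hbHep and 3 were lower (median log2 fold change 1.48), and of 24 female-biased genes 2 were higher and 17 lower (median -3.22). Cyp4a12a (ENSMUSG00000066071, chr4:115299046-115332815 on GRCm38.p6), a fatty acid hydroxylase specific to male liver, had an abundance of 11873, 4776 and 14015 in hbHep mice 1, 2 and 3 and 1.55, 2.18, 2.61 and 2.69 in day 6 tumors 1 to 4. Tumor values lie near the limit of detection while every hbHep value is high (log2 fold change 11.49 ± 0.35 (SE), adjusted p = 2.65e-12). Its neighbor Cyp4a12b stood at 9649, 6727 and 10475 in hbHep mice 1, 2 and 3 and 4.65, 10.9, 1.74 and 5.40 in day 6 tumors 1 to 4 (log2 fold change 10.55 ± 0.62 (SE), adjusted p = 5.51e-09). In the other direction, Cyp2b9 (ENSMUSG00000040660, chr7:26173350-26210661), a female-specific P450, was at 0.57, 0.00 and 1.28 in hbHep mice 1, 2 and 3 and 3797, 5871, 2017 and 3699 in day 6 tumors 1 to 4. It was all but absent from hbHep (log2 fold change -11.20 ± 0.52 (SE), adjusted p = 3.28e-10). Cyp2c69 was at 3.58 to 33.6 in hbHep and 8179 to 15087 in the tumors (log2 fold change -9.90 ± 0.49 (SE), adjusted p = 7.78e-10) and Cyp2c40 at 64.3 to 80.2 in hbHep and 2199.9 to 3450.4 in the tumors (log2 fold change -5.32 ± 0.31 (SE), adjusted p = 4.24e-09), both in the P450 cluster of chromosome 19.

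A run of female-biased P450 genes on chromosome 5 was lower together. Cyp3a16 (ENSMUSG00000038656, chr5:145436309-145469740) had an abundance of 17.4, 24.1 and 19.4 in hbHep mice 1, 2 and 3 and 15476, 20446, 10304 and 17964 in day 6 tumors 1 to 4 (log2 fold change -9.52 ± 0.26 (SE), adjusted p = 9.32e-13). Cyp3a44, Cyp3a41b and Cyp3a41a had log2 differences of -7.86, -6.69 and -5.36, with adjusted p of 2.91e-10, 2.03e-06 and 6.33e-08. These members are close copies, so the split of reads among them is uncertain. Each was named by a rule that requires every tumor above every hbHep mouse, so that separation adds no support. In the same order, the YAP1on tumors had means of 78.1, 105 and 1799 and FAH liver of 9.31, 2.70 and 35.4. Slc22a26, an organic anion transporter gene, was at 20.3 to 87.1 in hbHep and 1731 to 2755 in the tumors (log2 fold change -5.49 ± 0.39 (SE), adjusted p = 5.18e-08), and Cux2, a female-specific transcription repressor of mouse liver, at 34.7 to 75.6 in hbHep and 475 to 574 in the tumors (log2 fold change -3.16 ± 0.27 (SE), adjusted p = 3.26e-07). Exceptions among the female-biased genes were Sult1e1, an estrogen sulfotransferase, at 569, 607 and 65.8 against 19.4 to 37.6 in the tumors (log2 fold change 3.47 ± 0.73 (SE), adjusted p = 0.00127), and Cyp2a4, a testosterone hydroxylase, at 4815, 12877 and 13502 against 1200.1 to 2955 (log2 fold change 2.23 ± 0.44 (SE), adjusted p = 7.62e-04). Among the male-biased genes Serpina1e, Selenbp2 and Mup20 went the other way, with Serpina1e the lowest (log2 fold change -7.43 ± 0.44 (SE), adjusted p = 5.21e-09). Selenbp2 was at 63.6 to 209 in hbHep and 1057 to 2145 in the tumors (log2 fold change -3.78 ± 0.39 (SE), adjusted p = 2.42e-06). Leaving out mouse 2 gave a log2 fold change of -9.17, -4.73, -6.07 and -4.87 for Cyp2c69, Cyp3a41a, Cyp3a41b and Slc22a26, in that order. With mouse 3 left out, the log2 fold change of Cyp2c69 and Sult1e1 was -10.63 and 4.51, in that order. Male-biased mouse liver genes lower in hbHep numbered 5 without hbHep mouse 3.

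Genes of the Y chromosome moved with this pattern. Ddx3y (ENSMUSG00000069045), an RNA helicase gene of the Y chromosome, was at 2548, 1905 and 1693 in hbHep mice 1, 2 and 3 and 18.6, 16.6, 11.7 and 18.6 in day 6 tumors 1 to 4 (log2 fold change 6.88 ± 0.44 (SE), adjusted p = 1.38e-08), and FAH liver had 2702 ± 642 (SD, n = 3). Eif2s3y and Uty were higher too, with log2 fold changes of 6.92 and 3.79 (adjusted p = 1.83e-09 and 1.19e-09). In YAP1on tumors the mean of Ddx3y was 22.3. Y-linked transcripts thus stood at a higher level in every hbHep mouse than in any tumor. Sex as read from these genes differs with the groups, and its part in the sex-biased genes cannot be told apart from that of state, strain or genotype.

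**Figure D2:**
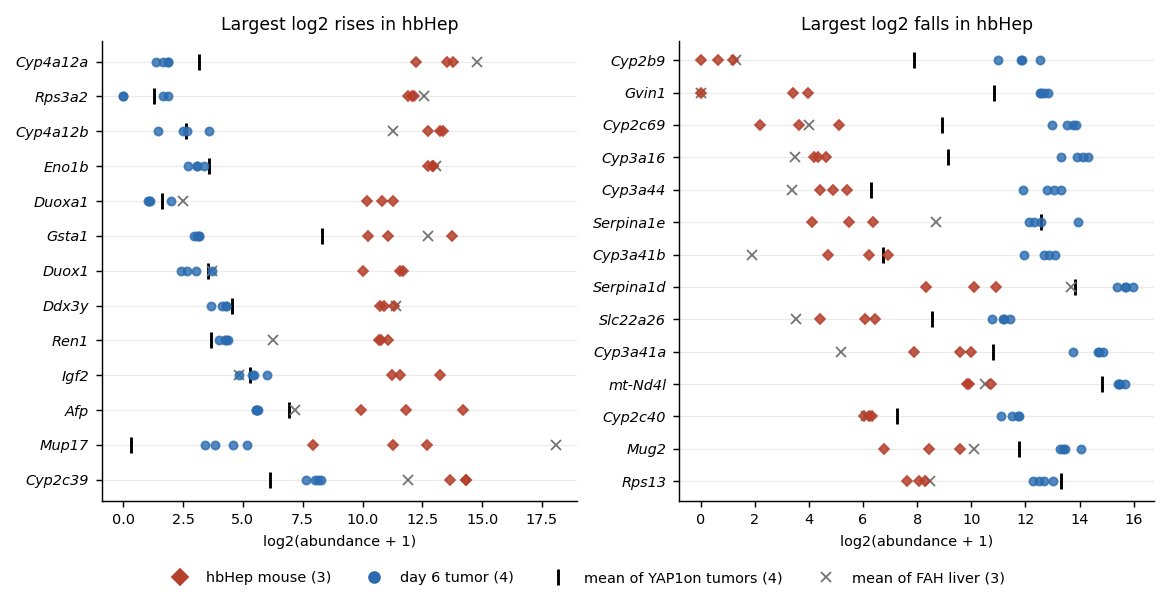
Abundance on a log2(abundance + 1) axis of 13 of the 14 genes with the largest rises (left) and the 14 with the largest falls (right) by the fixed rule, 1 row a gene, red diamonds for the 3 hbHep mice and blue circles for the 4 day 6 tumors, with ticks and crosses for means of YAP1on tumors and FAH liver. Cyp4a12a and Cyp2b9 stand at the top of the 2 panels. The rule admits only genes in which no hbHep mouse overlaps a tumor.

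Open chromatin at the start sites was available for 1 library each of days 14, 33 and 64, labelled Yap Off. These times lie between the 2 RNA states. The libraries of days 14, 33 and 64 held 1023760, 780497 and 769500 intervals, with mean widths of 72.6, 76.6 and 75.3 bases. Presence is thus not compared at a like number of intervals. An interval within 500 bases of the start site was present for 85.6%, 84.3% and 84.5% of the 12468 genes tested that had a start site in the reference table. For the female-biased list it was present for 16 of 19 genes at day 14, 10 at day 33 and 11 at day 64, and for the Y-linked list for 0, 4 and 4 of 4. Intervals covered 185 bases at Cyp3a16 at day 14 and 0 at days 33 and 64, and 215, 0 and 0 bases at Cyp3a44. At Ddx3y they covered 0, 593 and 525 bases, and at Xist of the X chromosome 340, 0 and 0 bases. With 1 library a day these are presences in that library, and the day 14 library differs from the later ones at Y-linked start sites, as the RNA groups do.

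Redox genes formed one of the most uniform groups. Of 20 NRF2 redox genes, 19 were higher in hbHep and 0 lower (0 by limma at an unadjusted p under 0.05), against 24.1% higher over all genes, with a median log2 fold change of 1.97. Among members called higher whose promoter holds the letters named below, the 2 with the largest differences were picked. The other lists with promoters were treated alike, each in its own direction. A match in a printed promoter is thus fixed by this choice. Short stretches of these 2 promoters are shown. They run from 250 bases before to 50 bases after the start, 5′ to 3′ on the gene's strand, from RefSeq on GRCm38.p6, with matches in either direction to TGACNNNGC, the core of the antioxidant response element, in capitals.
Abcc4: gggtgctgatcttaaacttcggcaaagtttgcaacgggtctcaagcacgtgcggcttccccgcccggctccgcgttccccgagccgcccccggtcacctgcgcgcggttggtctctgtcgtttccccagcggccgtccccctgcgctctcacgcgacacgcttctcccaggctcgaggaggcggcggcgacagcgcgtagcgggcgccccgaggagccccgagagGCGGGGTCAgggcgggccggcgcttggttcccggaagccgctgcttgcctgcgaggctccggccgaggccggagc
Srxn1: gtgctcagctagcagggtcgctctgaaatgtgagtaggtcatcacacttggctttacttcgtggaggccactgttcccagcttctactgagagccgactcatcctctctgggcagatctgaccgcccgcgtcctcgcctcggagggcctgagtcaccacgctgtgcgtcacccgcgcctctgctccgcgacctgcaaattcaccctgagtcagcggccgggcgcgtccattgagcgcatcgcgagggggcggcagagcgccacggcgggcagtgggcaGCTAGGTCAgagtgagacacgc
The window of Abcc4 is chr14:118706170-118706469, minus strand, and that of Srxn1 is chr2:152105274-152105573, plus strand. The letters TGACNNNGC were found on either strand in 7 of 17 members with a promoter in the table (41.2%), and in 14% of 27025 genes. A match is not a bound site, and its absence from this window says nothing of the factor.

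Abcc4, an efflux transporter of the sinusoidal membrane, had an abundance of 6301, 21860.3 and 11110.3 in hbHep mice 1, 2 and 3 and 408, 505, 453 and 460.4 in day 6 tumors 1 to 4 (log2 fold change 4.66 ± 0.28 (SE), adjusted p = 7.03e-09). Srxn1, which encodes sulfiredoxin and repairs oxidized peroxiredoxins, was at 651, 3108 and 639 in hbHep mice 1, 2 and 3 and 158, 163, 150.3 and 145 in day 6 tumors 1 to 4 (log2 fold change 2.82 ± 0.45 (SE), adjusted p = 1.39e-04). In both, hbHep mouse 2 was the highest by far. Gsta1 (ENSMUSG00000074183, chr9:78230669-78242683), a glutathione transferase, was at 1198, 13767 and 2151 in hbHep mice 1, 2 and 3 and 7.34, 7.84, 6.73 and 8.02 in day 6 tumors 1 to 4 (log2 fold change 8.60 ± 0.66 (SE), adjusted p = 1.20e-07), with mouse 2 again far above the other mice. Its close copy Gsta2 had values of 4394, 18147 and 5485 in hbHep and 302 to 372 in the tumors, and reads shared between these copies make the split uncertain. Slc7a11, the cystine importer, was at 678, 12881 and 1194 in hbHep mice 1, 2 and 3 and 97.9, 85.1, 103 and 93.9 in day 6 tumors 1 to 4 (log2 fold change 4.51 ± 0.64 (SE), adjusted p = 4.85e-05), and Cbr3, a carbonyl reductase, at 247, 2243 and 414 against 11.1 to 13.2 (log2 fold change 5.58 ± 0.59 (SE), adjusted p = 2.80e-06). Every hbHep mouse exceeded every tumor in each of these genes. Without hbHep mouse 2 the log2 fold change of Gsta1, Gsta2, Cbr3, Slc7a11 and Srxn1 was 7.57, 3.89, 4.64, 3.23 and 2.06, in that order. Gsta1, Cbr3 and Slc7a11 had log2 fold changes of 9.33, 6.23 and 5.36, in that order, when hbHep mouse 1 was left out.

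Enzymes of glutathione synthesis and of the pentose phosphate pathway showed smaller differences. Gclc and Gclm, the subunits of the first enzyme of glutathione synthesis, had log2 fold changes of 2.48 and 1.00 (adjusted p = 2.07e-04 and 6.18e-05). Nqo1, a quinone reductase widely used as an NRF2 readout, was at 1813 to 4904 in hbHep and 459 to 598 in the tumors (log2 fold change 2.35 ± 0.31 (SE), adjusted p = 2.60e-05), and Hmox1, heme oxygenase, at 1024 to 2460.1 in hbHep and 517 to 769 in the tumors (log2 fold change 1.27 ± 0.31 (SE), adjusted p = 0.00404). Pgd, Taldo1 and Tkt of the pentose phosphate pathway were higher by 1.45, 1.30 and 1.08 on the log2 scale. G6pdx, the entry enzyme of that pathway, was the member that did not pass (0.22, adjusted p = 0.276). Leaving out mouse 2 gave a log2 fold change of 1.76 for Gclc. In FAH liver Gsta1 stood at 6777 ± 2266 (SD, n = 3) and Nqo1 at 1903 ± 551 (SD, n = 3), within the range of hbHep, whereas Slc7a11 stood at 75.3 ± 5.77 (SD, n = 3), near the tumors.

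Next to these stood a pair of genes that make hydrogen peroxide. Duox1 (ENSMUSG00000033268, chr2:122313010-122347972), a dual oxidase, was at 2998, 1049.5 and 3332 in hbHep mice 1, 2 and 3 and 5.42, 4.37, 7.25 and 12.1 in day 6 tumors 1 to 4 (log2 fold change 8.13 ± 0.38 (SE), adjusted p = 4.07e-10). Duoxa1, the neighboring gene whose product carries the oxidase to the membrane, was at 2455, 1167 and 1814 in hbHep mice 1, 2 and 3 and 1.16, 1.02, 1.09 and 3.03 in day 6 tumors 1 to 4 (log2 fold change 9.46 ± 0.42 (SE), adjusted p = 2.36e-10). Means of Duox1 and Duoxa1 were 10.7 and 2.03 in YAP1on tumors and 11.9 and 4.58 in FAH liver. All 3 hbHep mice thus lay far above the day 6 tumors and above both of these means. Duoxa1 passed the filter on low values only through the 3 hbHep mice, so its p-value adds no separate support. Without any 1 of them it was not tested.

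Of 20 ATF4 and amino acid stress genes, 11 were higher and 0 lower (0 by limma at an unadjusted p under 0.05). Their median log2 fold change was 0.77. Promoters of Asns and Slc7a11 are shown with matches to TGATGNAA, a form of the amino acid response element, in either direction in capitals.
Asns: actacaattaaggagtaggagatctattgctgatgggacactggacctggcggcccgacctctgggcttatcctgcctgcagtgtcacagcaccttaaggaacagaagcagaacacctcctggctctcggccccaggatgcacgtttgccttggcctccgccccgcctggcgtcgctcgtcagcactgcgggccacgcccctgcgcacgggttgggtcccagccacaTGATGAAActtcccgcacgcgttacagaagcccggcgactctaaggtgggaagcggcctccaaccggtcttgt
Slc7a11: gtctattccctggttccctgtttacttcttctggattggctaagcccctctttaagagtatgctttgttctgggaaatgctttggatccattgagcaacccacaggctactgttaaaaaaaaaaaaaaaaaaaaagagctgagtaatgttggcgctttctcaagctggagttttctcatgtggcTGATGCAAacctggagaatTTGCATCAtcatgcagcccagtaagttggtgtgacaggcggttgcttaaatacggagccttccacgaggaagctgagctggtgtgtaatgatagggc
Their windows are chr6:7693160-7693459, minus strand, and chr3:50443564-50443863, minus strand. TGATGNAA was found on either strand in 8 of 19 members (42.1%) and in 4.51% of 27025 genes. Asns, asparagine synthetase, was at 731, 722 and 777 in hbHep and 16.2 to 25.2 in the tumors (log2 fold change 5.15 ± 0.20 (SE), adjusted p = 6.24e-11), with the 3 mice close together. Nupr1, a stress-induced nuclear protein gene, was at 211, 570.4 and 129.7 in hbHep mice 1, 2 and 3 and 25.8, 27.8, 24.0 and 29.9 in day 6 tumors 1 to 4 (log2 fold change 3.18 ± 0.45 (SE), adjusted p = 5.16e-05). With mouse 2 left out, the log2 fold change of Nupr1 was 2.58. Atf4 itself had a log2 difference of 0.34 and did not pass (adjusted p = 0.0958), and neither did Phgdh of serine synthesis (0.01). Slc3a2, the shared subunit of several amino acid transporters, was higher at 999 to 2062 in hbHep and 656 to 872 in the tumors (log2 fold change 0.81 ± 0.21 (SE), adjusted p = 0.006).

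**Figure D3:**
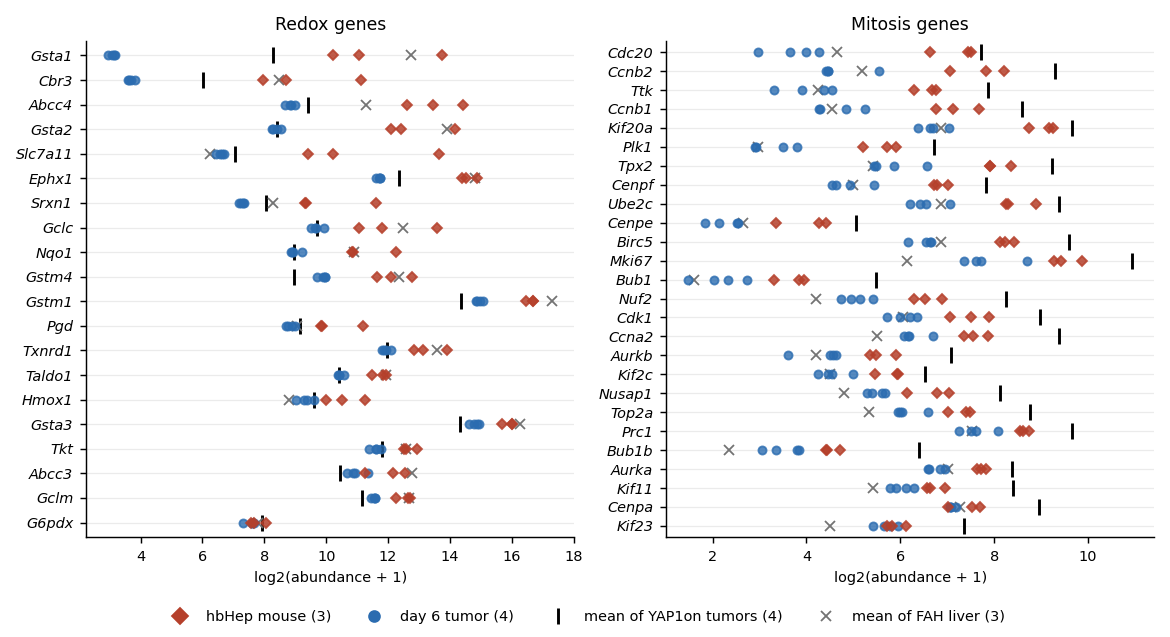
Abundance of the NRF2 redox genes (left) and mitosis genes (right) on log2(abundance + 1) axes, 1 row a gene ordered by the difference, symbols as in the plot of largest differences. Among the redox genes hbHep lies to the right of the tumors in nearly every row, and among the mitosis genes the mean of the YAP1on tumors is the highest group mean in every row.

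Cell division genes were higher in hbHep than in the day 6 tumors. Of 26 mitosis genes 24 were higher and 0 lower (0 by limma at an unadjusted p under 0.05), with a median log2 fold change of 1.53. Promoters of Cdc20 and Ccnb2 are given with TTTGAA, the core of the cell cycle genes homology region, in either direction in capitals.
Cdc20: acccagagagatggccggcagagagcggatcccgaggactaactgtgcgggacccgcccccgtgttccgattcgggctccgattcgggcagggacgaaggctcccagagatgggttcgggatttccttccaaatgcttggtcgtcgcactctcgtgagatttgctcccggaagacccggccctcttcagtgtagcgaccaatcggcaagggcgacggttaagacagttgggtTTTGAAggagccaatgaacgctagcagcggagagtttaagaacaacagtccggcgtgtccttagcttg
Ccnb2: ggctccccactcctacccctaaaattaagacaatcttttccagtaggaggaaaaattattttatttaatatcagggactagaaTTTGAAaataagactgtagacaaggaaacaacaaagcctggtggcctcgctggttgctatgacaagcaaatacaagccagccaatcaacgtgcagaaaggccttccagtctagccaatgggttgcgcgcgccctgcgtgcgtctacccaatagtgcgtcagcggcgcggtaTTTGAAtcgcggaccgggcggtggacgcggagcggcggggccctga
Their windows are chr4:118437294-118437593, minus strand, and chr9:70421505-70421804, minus strand. TTTGAA stood on either strand in 16 of 22 members with a promoter (72.7%) and in 20.2% of 27025 genes.

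Cdc20, which activates the anaphase-promoting complex, had an abundance of 179.9, 98.7 and 174 in hbHep mice 1, 2 and 3 and 11.6, 18.2, 6.81 and 15.0 in day 6 tumors 1 to 4 (log2 fold change 3.48 ± 0.30 (SE), adjusted p = 3.49e-07). Ccnb2, cyclin B2, was at 295, 133 and 226 in hbHep mice 1, 2 and 3 and 20.9, 45.5, 21.0 and 20.2 in day 6 tumors 1 to 4 (log2 fold change 2.99 ± 0.33 (SE), adjusted p = 4.49e-06). Mki67, the proliferation marker, was at 932, 622 and 688 in hbHep mice 1, 2 and 3 and 194, 412, 209 and 162 in day 6 tumors 1 to 4 (log2 fold change 1.68 ± 0.28 (SE), adjusted p = 2.16e-04). In all 3 genes each hbHep mouse lay above each tumor. For scale, means in YAP1on tumors were 209, 625 and 1964, and in FAH liver 24.2, 35.3 and 69.2. Kif20a, a mitotic kinesin, was higher by 2.37 (adjusted p = 1.97e-07) and Cdk1 by 1.42 (adjusted p = 1.69e-04) on the log2 scale, while Cenpa and Kif23 did not pass (0.31 and 0.19), although without hbHep mouse 2 the adjusted p of Cenpa was 0.0215.

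DNA replication genes were divided, with 12 of 26 higher and 2 lower (median log2 fold change 0.47). Mcm5 of the replicative helicase was at 288 to 449 in hbHep and 114 to 173 in the tumors (log2 fold change 1.56 ± 0.20 (SE), adjusted p = 2.25e-05), and Uhrf1, which keeps DNA methylation during replication, at 209 to 280.5 in hbHep and 59.9 to 123 in the tumors (log2 fold change 1.68 ± 0.24 (SE), adjusted p = 6.06e-05). Ccne1, cyclin E1, was higher by 2.17 and Pcna had a log2 difference of -0.22 and did not pass. Tk1, a thymidine kinase, was the lowest that passed (log2 fold change -0.67 ± 0.19 (SE), adjusted p = 0.0085), and without hbHep mouse 2 the adjusted p of Tk1 was 0.0533. DNA replication genes lower in hbHep numbered 1 without hbHep mouse 3. Ccnd1, cyclin D1, which drives entry into the cell cycle and is a Wnt target, was at 4057, 3659 and 3288 in hbHep mice 1, 2 and 3 and 845, 977, 905 and 798 in day 6 tumors 1 to 4 (log2 fold change 2.06 ± 0.16 (SE), adjusted p = 1.05e-07). Of 18 genes of the cyclin D group, 5 were higher and 1 was lower. The lower one was Trp53, which encodes p53, at 416 to 743 in hbHep and 896 to 1097 in the tumors (log2 fold change -0.86 ± 0.17 (SE), adjusted p = 9.57e-04). Among 20 p53 target genes 7 were higher and 3 lower. Eda2r, a receptor gene induced by p53, was higher by 2.64 (adjusted p = 1.15e-06), Btg2, an antiproliferative gene, was lower, with a log2 fold change of -1.40 (adjusted p = 4.53e-05), and Cdkn1a, the p21 gene, had a difference of -0.60 and did not pass, although without hbHep mouse 2 the adjusted p of Cdkn1a was 6.11e-04. Cyclin D and CDK inhibitors lower in hbHep numbered 3 without hbHep mouse 2 and 2 without hbHep mouse 3.

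Fetal liver genes were higher in a subset and differed widely among hbHep mice and between libraries of 1 mouse. Of 21 tested, 9 were higher and 2 lower (median log2 fold change 0.25). Afp (ENSMUSG00000054932, chr5:90490714-90508907), alpha-fetoprotein, the standard serum marker of hepatoblastoma, was at 966, 19026 and 3571 in hbHep mice 1, 2 and 3 and 47.0, 46.4, 45.2 and 48.0 in day 6 tumors 1 to 4 (log2 fold change 6.40 ± 0.63 (SE), adjusted p = 1.51e-06). Its single hbHep libraries were at 1000.4 and 932 in mouse 1, 17073 and 20978 in mouse 2, 6538 and 603 in mouse 3. Igf2 (ENSMUSG00000048583), the fetal growth factor, was at 2400.2, 3042 and 9554 in hbHep mice 1, 2 and 3 and 27.3, 41.1, 62.9 and 43.2 in day 6 tumors 1 to 4 (log2 fold change 6.59 ± 0.54 (SE), adjusted p = 2.28e-07), and its libraries were at 474 and 4326 in mouse 1, 3111 and 2974 in mouse 2, 9102 and 10006 in mouse 3. The widest ratio between technical libraries was that of Lars2, a mitochondrial tRNA ligase gene, at 26583 and 1177 in mouse 1, and in mouse 2 that of Grip2 reached 39793 and 14349.5 among the widest. In Afp the library pair of mouse 3 and in Igf2 the pair of mouse 1 differed about as widely as different mice did. Every single library of hbHep nevertheless exceeded every tumor in both genes. Without hbHep mouse 2 the log2 fold change of Afp and Bex2 was 5.29 and 3.82, in that order. Afp had a log2 fold change of 7.43 when hbHep mouse 1 was left out. Leaving out mouse 3 gave a log2 fold change of 5.98 and 5.91 for Igf2 and Bex2, in that order.

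Dlk1, a membrane protein gene of hepatoblasts, was at 12.6, 192 and 20.9 in hbHep mice 1, 2 and 3 and 0.69, 0.13, 0.64 and 0.15 in day 6 tumors 1 to 4, with mouse 2 the highest (log2 fold change 4.81 ± 0.77 (SE), adjusted p = 1.37e-04). Bex2, an embryonic signaling adaptor gene, showed the same order at 50.7, 472 and 24.8 against 1.01 to 2.32 in the tumors (log2 fold change 5.05 ± 0.72 (SE), adjusted p = 5.37e-05). Ly6d was the most even of the group, at 8129, 8151 and 7806 in hbHep mice 1, 2 and 3 and 470.0, 402, 428 and 548 in day 6 tumors 1 to 4 (log2 fold change 4.13 ± 0.27 (SE), adjusted p = 1.84e-08). Gpc3, a cell surface proteoglycan used to diagnose hepatoblastoma, had a difference of 0.06 and did not pass. Epcam, an epithelial adhesion gene of hepatoblasts and bile ducts, was lower at 21.8 to 25.9 in hbHep and 31.6 to 88.0 in the tumors (log2 fold change -1.01 ± 0.33 (SE), adjusted p = 0.0199), but without hbHep mouse 2 the adjusted p of Epcam was 0.0575 and without tumor 3 the adjusted p of Epcam was 0.0646. Without any 1 of the hbHep mice Dlk1 was below the filter on low values and was not tested. With a pseudocount of 10 the log2 fold change of Dlk1 and Bex2 was 2.32 and 3.11. Fetal liver and hepatoblastoma genes lower in hbHep numbered 1 without hbHep mouse 2 or hbHep mouse 3 or tumor 2 or tumor 3 or tumor 4. Values without rescaling also gave 1. In YAP1on tumors the means of Afp, Igf2 and Ly6d were 122, 38.8 and 912, and in FAH liver 142, 27.3 and 69.4. Afp had no accessible interval within 500 bases of its start site in any of the day 14, 33 and 64 libraries.

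**Figure D4:**
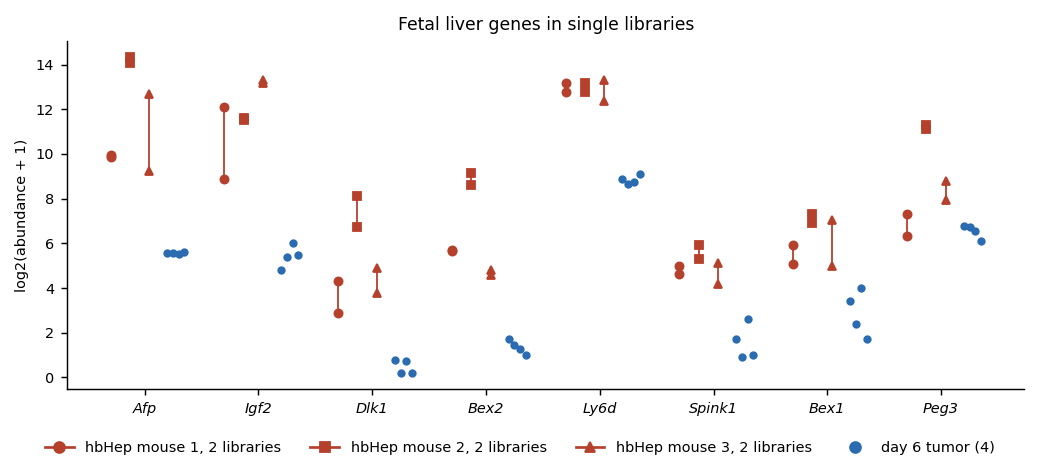
Fetal liver genes on a log2(abundance + 1) axis in each of the 2 libraries of the 3 hbHep mice (red circles, squares and triangles, joined by a line for 1 mouse) and in the 4 day 6 tumors (blue). Afp of mouse 3 and Igf2 of mouse 1 show the widest gaps between libraries, and all Afp, Igf2 and Ly6d points of hbHep lie above all tumor points.

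Bile duct and progenitor markers were more often lower, with 4 of 24 higher and 8 lower (median log2 fold change -0.31). Sox9, a transcription factor of bile duct and progenitor cells, was at 57.5, 131 and 113 in hbHep mice 1, 2 and 3 and 388, 415, 771 and 302 in day 6 tumors 1 to 4 (log2 fold change -2.20 ± 0.32 (SE), adjusted p = 5.62e-05). Elf3, an epithelial transcription factor, was at 31.4 to 72.6 in hbHep and 408 to 958 in the tumors (log2 fold change -3.53 ± 0.34 (SE), adjusted p = 1.23e-06), and Spp1, osteopontin, at 816 to 1259 in hbHep and 2193 to 6535 in the tumors (log2 fold change -1.67 ± 0.28 (SE), adjusted p = 2.08e-04). Tumor 3 was the highest of the tumors in all 3. The general epithelial keratins Krt8 and Krt18 went the other way, with log2 fold changes of 1.21 and 0.74 (adjusted p = 1.66e-04 and 0.00179), and the bile duct keratins Krt7 and Krt19 did not pass, at 6.03 to 12.2 in hbHep and 10.3 to 27.4 in the tumors for Krt7 and a log2 difference of 0.72 for Krt19, although without hbHep mouse 3 the adjusted p of Krt7 was 0.0437 and without tumor 4 the adjusted p of Krt7 was 0.0377. Krt23, a keratin gene, had the largest rise of the list, at 85.8 to 318 in hbHep and 21.2 to 28.3 in the tumors (log2 fold change 2.90 ± 0.33 (SE), adjusted p = 7.04e-06). With mouse 1 left out, the log2 fold change of Krt23 was 3.49. The whole list summed to 50213 to 52279 in hbHep and 26263 to 39072 in the day 6 tumors, without overlap and with Krt8 and Krt18 among its members, while the 5 bile duct markers given above summed lower in hbHep.

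Some direct Wnt targets were far higher in hbHep while Ctnnb1 was lower. Of 14 Wnt feedback genes 6 were higher and 1 was lower. Apcdd1, a Wnt inhibitor, was at 566, 814 and 938 in hbHep mice 1, 2 and 3 and 12.6, 12.2, 11.2 and 12.0 in day 6 tumors 1 to 4 (log2 fold change 5.87 ± 0.24 (SE), adjusted p = 8.43e-11). Nkd1, which dampens Wnt signaling through Dishevelled, was at 13055, 2926 and 12918 in hbHep mice 1, 2 and 3 and 488, 717, 597 and 704 in day 6 tumors 1 to 4, with mouse 2 the lowest hbHep mouse (log2 fold change 3.67 ± 0.40 (SE), adjusted p = 4.44e-06). Lef1 and Sp5, transcription factors at the end of the pathway, were higher by 2.87 and 2.73 on the log2 scale (adjusted p = 1.04e-07 and 3.81e-08). Axin2, the most widely used readout, was at 959 to 1236 in hbHep and 690.3 to 812 in the tumors (log2 fold change 0.63 ± 0.12 (SE), adjusted p = 7.66e-04), whereas Lgr5 and Rnf43 did not pass (0.15 and 0.14). The gene that was lower was Dkk1, a secreted Wnt inhibitor, at 2.08 to 12.2 in hbHep and 15.2 to 19.2 in the tumors (log2 fold change -1.86 ± 0.47 (SE), adjusted p = 0.00442). Without hbHep mouse 2 the log2 fold change of Nkd1, Wnt4 and Dkk1 was 4.39, 1.19 and -2.54, in that order. With a pseudocount of 10 that of Dkk1 was -0.89. Of 9 Wnt and R-spondin genes that liver endothelium and other niche cells make, 1 was higher, Wnt4 at 267 to 1163 in hbHep and 132 to 154 in the tumors (log2 fold change 1.80 ± 0.38 (SE), adjusted p = 0.00131), and 1 was lower, namely Sfrp1, a secreted Wnt inhibitor, at 12.5 to 19.7 in hbHep and 29.5 to 57.1 in the tumors (log2 fold change -1.39 ± 0.40 (SE), adjusted p = 0.01). Wnt2, Wnt9b and Rspo3 did not pass (0.39, -0.04 and -0.12), although without hbHep mouse 3 the adjusted p of Wnt2 was 0.0414. Of 14 genes for beta-catenin partners and regulators 1 was higher, Csnk1a1, a kinase that marks beta-catenin for breakdown (log2 fold change 0.61 ± 0.11 (SE), adjusted p = 5.68e-04), and 3 were lower, with Ctnnb1 the lowest. Wnt feedback target genes lower in hbHep numbered 2 without hbHep mouse 3. Wnt and R-spondin niche genes higher in hbHep numbered 2 without hbHep mouse 3. Wnt and R-spondin niche genes lower in hbHep numbered 2 without hbHep mouse 1. Beta-catenin and its partners lower in hbHep numbered 1 without hbHep mouse 1 or tumor 2 or tumor 3. Quantile normalization gave 2 lower Wnt feedback genes, and values without rescaling gave 1 lower beta-catenin partner or regulator.

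The pericentral program was higher as a group, in 17 of 25 genes with 1 lower (median log2 fold change 1.10). Glul, glutamine synthetase, the enzyme that marks the last cells around the central vein, was at 78874, 39838 and 72334 in hbHep mice 1, 2 and 3 and 13964, 21512, 16526 and 17883 in day 6 tumors 1 to 4 (log2 fold change 1.82 ± 0.32 (SE), adjusted p = 3.34e-04). Rhbg, an ammonium transporter, was at 15265, 9974 and 10180.1 in hbHep mice 1, 2 and 3 and 855, 1172, 932 and 1046 in day 6 tumors 1 to 4 (log2 fold change 3.54 ± 0.25 (SE), adjusted p = 4.84e-08), and Cyp1a2, a pericentral P450, at 55959.5, 68906 and 60207 in hbHep mice 1, 2 and 3 and 7470.1, 8675, 5966 and 7463 in day 6 tumors 1 to 4 (log2 fold change 3.07 ± 0.20 (SE), adjusted p = 1.65e-08). Cyp2a5, a coumarin hydroxylase that NRF2 also controls, showed the largest difference of the list (log2 fold change 4.39 ± 0.35 (SE), adjusted p = 1.64e-07). Cyp2e1, the ethanol-inducible P450, did not pass (-0.12, adjusted p = 0.796), and Cyp2c37 was lower at 1285 to 1789 in hbHep and 7219.8 to 11584 in the tumors (log2 fold change -2.62 ± 0.22 (SE), adjusted p = 2.79e-07). Quantile normalization gave 2 lower pericentral genes.

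Periportal genes were split, with 10 of 23 higher and 5 lower (median log2 fold change 0.10). Apoa4, an apolipoprotein of lipid export, was at 12893, 8266 and 35699 in hbHep mice 1, 2 and 3 and 786, 1209.9, 642 and 742 in day 6 tumors 1 to 4 (log2 fold change 4.25 ± 0.48 (SE), adjusted p = 5.67e-06), and mouse 3 was the highest. Apoa4 had a log2 fold change of 3.65 when hbHep mouse 3 was left out. Hsd17b13, a lipid droplet enzyme, was higher by 2.02 (adjusted p = 4.31e-06). Among the lower genes were Cps1, the entry enzyme of the urea cycle, at 35757, 70250.2 and 60582 in hbHep mice 1, 2 and 3 and 123769, 167966, 118119.7 and 106161 in day 6 tumors 1 to 4 (log2 fold change -1.25 ± 0.32 (SE), adjusted p = 0.0054), and G6pc, the last enzyme of glucose output, at 2801 to 6177 in hbHep and 13494 to 14467 in the tumors (log2 fold change -1.60 ± 0.27 (SE), adjusted p = 2.26e-04). Pigr, which carries antibodies across epithelia, was the lowest of the list, at 494 to 2904 in hbHep and 5119 to 7673 in the tumors (log2 fold change -2.16 ± 0.42 (SE), adjusted p = 7.41e-04). Leaving out mouse 2 gave a log2 fold change of -1.43 for Pigr. Periportal hepatocyte genes lower in hbHep numbered 3 without hbHep mouse 2 or tumor 2. Values without rescaling gave 3 lower periportal genes and 5 higher urea cycle genes. The urea cycle as a list had 3 of 13 higher and 2 lower (23.1% and 15.4%), both under the 24.1% and 21.7% over all genes. Its largest rise was that of Got2, an aspartate aminotransferase of mitochondria (log2 fold change 0.97 ± 0.16 (SE), adjusted p = 2.25e-04). Otc, the next enzyme after Cps1, was lower at 2001 to 5305 in hbHep and 6916 to 9163 in the tumors (log2 fold change -1.20 ± 0.26 (SE), adjusted p = 0.00169), Ass1 and Arg1 did not pass (-0.06 and -0.20), and Asl was higher by 0.76 (adjusted p = 0.00104).

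Cytochrome P450 and drug metabolism genes moved both ways, with 16 of 36 higher and 9 lower (median log2 fold change 0.54). Cyp3a11, the main drug-metabolizing P450 of mouse liver, was at 125457, 76099.9 and 142174 in hbHep mice 1, 2 and 3 and 9778, 13257, 9558 and 12724 in day 6 tumors 1 to 4 (log2 fold change 3.30 ± 0.36 (SE), adjusted p = 4.49e-06). Cyp2c39 (ENSMUSG00000025003), a retinoic acid hydroxylase, was at 20302, 13084 and 20676 in hbHep mice 1, 2 and 3 and 259.9, 303, 198 and 279.5 in day 6 tumors 1 to 4 (log2 fold change 6.10 ± 0.22 (SE), adjusted p = 2.34e-11). In the same gene cluster as Cyp2c39, Cyp2c50 and Cyp2c54 were lower, with log2 fold changes of -2.46 and -2.25 (adjusted p = 4.92e-05 and 3.79e-04). Ces1c, a carboxylesterase secreted into plasma, was at 4017 to 17690.4 in hbHep and 73418 to 91579.5 in the tumors (log2 fold change -3.19 ± 0.37 (SE), adjusted p = 7.43e-06). Cyp1a1, an aryl hydrocarbon receptor target, was at 103, 491 and 133 against 4.29 to 10.7 (log2 fold change 4.43 ± 0.46 (SE), adjusted p = 2.43e-06). Fmo5, a monooxygenase, was higher at 28535 to 34829.8 in hbHep and 9277 to 13803 in the tumors (log2 fold change 1.47 ± 0.22 (SE), adjusted p = 8.02e-05). Of the 21 major urinary protein genes, 7 were higher and 4 lower, and Mup17 stood at 2501, 241 and 6681 in hbHep mice 1, 2 and 3 and 35.2, 23.0, 9.60 and 13.2 in day 6 tumors 1 to 4 (log2 fold change 6.39 ± 0.77 (SE), adjusted p = 1.03e-05), with mouse 2 the lowest. FAH liver had a mean of 274957 for it. The Mup genes are near-identical copies, so single values are uncertain. Mup19 was the lowest that passed (log2 fold change -2.74 ± 0.90 (SE), adjusted p = 0.022), but without hbHep mouse 2 the adjusted p of Mup19 was 0.0749 and without tumor 1 the adjusted p of Mup19 was 0.0648. With mouse 2 left out, the log2 fold change of Cyp1a1, Cyp2c50, Cyp2c54, Ces1c, Mup17 and Mup19 was 3.74, -1.86, -1.57, -2.60, 7.75 and -1.04, in that order. Without hbHep mouse 3 the log2 fold change of Mup17 and Mup19 was 5.36 and -3.92, in that order. With a pseudocount of 10 the log2 fold change of Cyp1a1 and Mup19 was 3.48 and -1.58. Major urinary protein genes higher in hbHep numbered 4 without hbHep mouse 1 and 3 without hbHep mouse 3. Major urinary protein genes lower in hbHep numbered 0 without hbHep mouse 2 and 8 without hbHep mouse 3 and 2 without tumor 1. Intervals covered 125, 834 and 848 bases at the Mup17 start site at days 14, 33 and 64. The day 14 library also differs from the later ones at Xist and Y-linked start sites, and the part of sex was not tested.

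In bile acid metabolism 8 of 23 genes were higher and 5 lower. Cyp7b1, of the alternative synthesis pathway, was at 1008 to 2827 in hbHep and 533 to 647 in the tumors (log2 fold change 1.61 ± 0.28 (SE), adjusted p = 3.07e-04), and Amacr, a racemase of side chain breakdown, at 3925 to 8932 in hbHep and 2169 to 2704 in the tumors (log2 fold change 1.48 ± 0.22 (SE), adjusted p = 7.59e-05). Slc10a1, the main importer of bile acids from blood, was lower at 1839 to 4643 in hbHep and 5766 to 10805 in the tumors (log2 fold change -1.58 ± 0.29 (SE), adjusted p = 4.38e-04), and Abcb11, the bile salt export pump, did not pass (-0.21). Cyp7a1, the rate-limiting enzyme of bile acid synthesis, did not pass either (0.56, adjusted p = 0.164), although without hbHep mouse 2 the adjusted p of Cyp7a1 was 0.00859. Bile acid synthesis and transport lower in hbHep numbered 3 without hbHep mouse 1 or hbHep mouse 2. Quantile normalization gave 8 lower. Of 10 genes of tyrosine and phenylalanine breakdown 3 were higher and 1 was lower, namely Fah. Hpd, the enzyme that NTBC blocks, had a log2 difference of -0.04 and did not pass.

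Secreted liver proteins were more often lower. Of 31 plasma protein genes 5 were higher and 13 lower (median log2 fold change -0.15), and of 24 acute phase genes 2 were higher and 11 lower (-0.46). Apoe, the apolipoprotein of remnant particles, was at 828012, 589686 and 761614 in hbHep mice 1, 2 and 3 and 161458, 189691, 149134 and 176191 in day 6 tumors 1 to 4 (log2 fold change 2.09 ± 0.40 (SE), adjusted p = 5.89e-04), and Alb, albumin, at 74341, 55018 and 91576 in hbHep mice 1, 2 and 3 and 35081, 44169, 28710.3 and 33177 in day 6 tumors 1 to 4 (log2 fold change 1.05 ± 0.27 (SE), adjusted p = 0.00589). The fibrinogen chains Fga, Fgb and Fgg were lower, with log2 fold changes of -1.48, -1.25 and -1.74 (adjusted p = 0.00123, 0.0022 and 1.67e-04). Lbp, which binds bacterial lipopolysaccharide, was at 1129.8 to 1772 in hbHep and 4416 to 5109 in the tumors (log2 fold change -1.74 ± 0.17 (SE), adjusted p = 1.63e-06), and Crp at 2446 to 4957 in hbHep and 9513 to 10585 in the tumors (log2 fold change -1.40 ± 0.20 (SE), adjusted p = 4.39e-05). Orm1 and Orm2, the orosomucoids, were the 2 acute phase genes that were higher (1.77 and 2.71). Plasma proteins made by hepatocytes higher in hbHep numbered 9 without hbHep mouse 2. Plasma proteins made by hepatocytes lower in hbHep numbered 8 without hbHep mouse 2. Acute phase genes higher in hbHep numbered 4 without hbHep mouse 2.

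The alpha-1-antitrypsin genes on chromosome 12 were lower as a cluster. Serpina1e (ENSMUSG00000072849, chr12:103946931-103956897) was at 43.6, 16.2 and 81.3 in hbHep mice 1, 2 and 3 and 4527, 6102, 15917 and 5059 in day 6 tumors 1 to 4 (log2 fold change -7.43 ± 0.44 (SE), adjusted p = 5.21e-09). Serpina1d was at 1099.8, 318 and 1922 in hbHep mice 1, 2 and 3 and 52171, 63913, 43053 and 53773 in day 6 tumors 1 to 4 (log2 fold change -5.91 ± 0.43 (SE), adjusted p = 6.39e-08), and Serpina1a, Serpina1b and Serpina1c were lower, with log2 fold changes of -2.26, -3.09 and -4.14. Reads are shared among these copies, so the split is uncertain. The part of strain, which differs with the groups, was not tested. Mug2, a murinoglobulin proteinase inhibitor of plasma, was at 109.6, 774 and 344 in hbHep mice 1, 2 and 3 and 11296, 16873, 10709 and 9837 in day 6 tumors 1 to 4 (log2 fold change -5.27 ± 0.44 (SE), adjusted p = 2.72e-07). Serpina1a, Serpina1b, Serpina1c, Serpina1d, Serpina1e and Mug2 had log2 fold changes of -1.61, -2.44, -3.18, -5.18, -6.82 and -5.93, in that order, when hbHep mouse 2 was left out. Leaving out mouse 1 gave a log2 fold change of -4.52 for Mug2. With mouse 3 left out, the log2 fold change of Serpina1c was -4.90. In growth hormone signaling 3 of 18 genes were higher and 5 lower (16.7% and 27.8%, against 24.1% and 21.7% over all genes). Igf1, the growth hormone target that liver sends into blood, was at 2591 to 5584 in hbHep and 12296 to 15896 in the tumors (log2 fold change -1.83 ± 0.21 (SE), adjusted p = 7.74e-06), and Socs2 and Cish, feedback inhibitors induced by growth hormone, were lower, with log2 fold changes of -1.44 and -2.05 (adjusted p = 1.41e-04 and 4.50e-06). Ghr, its receptor, did not pass (0.34), although without hbHep mouse 2 the adjusted p of Ghr was 0.00446. Quantile normalization gave 8 lower genes of this axis.

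Among 27 hepatocyte transcription factors 6 were higher and 7 lower (22.2% and 25.9%), shares near the 24.1% and 21.7% over all genes. Hnf4a, a central hepatocyte regulator, did not pass (-0.16, 95% interval -0.53 to 0.20), and Cebpa, a regulator of mature hepatocytes, was at 7256 to 17222 in hbHep and 5351 to 6048 in the tumors (log2 fold change 1.09 ± 0.25 (SE), adjusted p = 0.00208). Nr1i3, the xenobiotic receptor CAR, was higher by 1.59 (adjusted p = 5.61e-04), and Foxa1 and Nfia were lower, with log2 fold changes of -1.10 and -1.16 (adjusted p = 5.67e-04 and 9.11e-04). Onecut1, the lowest that passed, was at 1061, 177 and 1107 in hbHep mice 1, 2 and 3 and 1392, 1651, 1285 and 1198 in day 6 tumors 1 to 4 (log2 fold change -1.21 ± 0.45 (SE), adjusted p = 0.0376), with mouse 2 the lowest, and without hbHep mouse 2 the adjusted p of Onecut1 was 0.148. Without hbHep mouse 2 the log2 fold change of Onecut1 was -0.34. Leaving out any single tumor also took its adjusted p past 0.05. Under quantile normalization 13 factors were lower.

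Interferon response genes were lower in 15 of 29 members and higher in 2 (median log2 fold change -0.60). The promoters of the guanylate-binding protein genes Gbp2 and Gbp3 carry the core of the interferon-stimulated response element, GAAA repeated after any 2 bases, in either direction, in capitals.
Gbp2: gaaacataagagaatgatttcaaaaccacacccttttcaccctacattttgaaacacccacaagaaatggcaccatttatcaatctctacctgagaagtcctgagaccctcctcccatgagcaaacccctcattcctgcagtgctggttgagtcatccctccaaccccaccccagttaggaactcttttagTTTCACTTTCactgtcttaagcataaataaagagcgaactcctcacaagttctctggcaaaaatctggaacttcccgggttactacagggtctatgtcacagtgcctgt
Gbp3: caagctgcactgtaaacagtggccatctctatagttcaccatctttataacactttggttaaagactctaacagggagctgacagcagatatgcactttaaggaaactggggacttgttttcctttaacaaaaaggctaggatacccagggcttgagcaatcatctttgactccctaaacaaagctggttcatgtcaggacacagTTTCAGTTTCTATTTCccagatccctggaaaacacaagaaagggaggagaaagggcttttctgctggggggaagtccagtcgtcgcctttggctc
Their windows are chr3:142620413-142620712, plus strand, and chr3:142559794-142560093, plus strand. In Gbp3, 2 matches overlap. This core was found on either strand in 14 of 23 members (60.9%) and in 3.99% of 27025 genes.

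Gbp2, a GTPase of defense against intracellular microbes, was at 279, 119 and 147 in hbHep mice 1, 2 and 3 and 467, 507, 618 and 508 in day 6 tumors 1 to 4 (log2 fold change -1.62 ± 0.24 (SE), adjusted p = 6.40e-05), and Gbp3 at 228, 145 and 85.7 in hbHep mice 1, 2 and 3 and 323, 337, 324 and 313 in day 6 tumors 1 to 4 (log2 fold change -1.19 ± 0.24 (SE), adjusted p = 0.0011). Isg20, an antiviral exonuclease, was at 32.7 to 49.1 in hbHep and 102 to 139 in the tumors (log2 fold change -1.52 ± 0.22 (SE), adjusted p = 6.67e-05). The exceptions were Usp18, which limits interferon signaling, at 1029.5 to 1607 in hbHep and 375 to 424 in the tumors (log2 fold change 1.64 ± 0.15 (SE), adjusted p = 7.17e-07), and Igtp at 3003 to 4566 in hbHep and 1802 to 2227 in the tumors (log2 fold change 0.88 ± 0.17 (SE), adjusted p = 5.92e-04). Gvin1 (ENSMUSG00000045868), a very large interferon-induced GTPase gene of chromosome 7, was at 9.58, 0.00 and 14.6 in hbHep mice 1, 2 and 3 and 6001, 7298, 6568 and 6037 in day 6 tumors 1 to 4 (log2 fold change -10.20 ± 0.62 (SE), adjusted p = 7.14e-09), and in FAH liver it was listed at a mean of 0.00. Gvin1 had a log2 fold change of -8.98 when hbHep mouse 2 was left out. Leaving out mouse 3 gave a log2 fold change of -10.96 for Gvin1. Of 17 MHC genes 5 were lower and 0 higher (1 by limma at an unadjusted p under 0.05), with Nlrc5, the activator of MHC class I genes, at 211 to 352 in hbHep and 816 to 884 in the tumors (log2 fold change -1.55 ± 0.15 (SE), adjusted p = 1.15e-06). MHC class I and class II genes higher in hbHep numbered 1 without hbHep mouse 2 or hbHep mouse 3. MHC class I and class II genes lower in hbHep numbered 8 without hbHep mouse 1 and 1 without hbHep mouse 2 and 3 without tumor 3 or tumor 4. Quantile normalization gave 9 lower MHC genes, and values without rescaling gave 3 lower and 1 higher. Markers of T, NK and B cells moved with these lists, lower in 11 of 18, with the whole list summing to 587 to 1743 in hbHep and 1129.9 to 1555 in the day 6 tumors, and their part in the interferon and MHC differences was not tested.

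Transcripts of the respiratory chain split by genome. Of 13 mitochondrially encoded genes 11 were lower in hbHep and 0 higher (0 by limma at an unadjusted p under 0.05), with log2 fold changes from -5.33 (mt-Nd4l) to 0.15 (mt-Co1). Of 25 nuclear genes of the respiratory chain 19 were higher and 0 lower (0 by limma at an unadjusted p under 0.05), with a median of 0.85. mt-Nd2, a subunit of complex I, was at 12685, 13302 and 20363 in hbHep mice 1, 2 and 3 and 117545, 125534, 127908 and 141086 in day 6 tumors 1 to 4 (log2 fold change -3.08 ± 0.25 (SE), adjusted p = 1.83e-07). mt-Cytb of complex III was at 31737 to 42262 in hbHep and 192128 to 229029.9 in the tumors (log2 fold change -2.55 ± 0.26 (SE), adjusted p = 2.41e-06), and mt-Co1 and mt-Co3 of complex IV did not pass (0.15 and 0.01). The very large difference of mt-Nd4l (log2 fold change -5.33 ± 0.23 (SE), adjusted p = 1.23e-10) lies in a short gene that overlaps its neighbor. Nuclear subunits of the same complexes went the other way, such as Ndufv1 of complex I at 3284, 4742 and 3019.8 in hbHep mice 1, 2 and 3 and 1100.1, 1265, 1060.4 and 1029.5 in day 6 tumors 1 to 4 (log2 fold change 1.70 ± 0.17 (SE), adjusted p = 1.29e-06), Sdhc of complex II at 5049 to 5912 in hbHep and 2027 to 2144 in the tumors (log2 fold change 1.37 ± 0.14 (SE), adjusted p = 2.13e-06) and Atp5b of ATP synthase at 26769.8 to 39282 in hbHep and 11363 to 11861 in the tumors (log2 fold change 1.42 ± 0.19 (SE), adjusted p = 2.65e-05). The regulators Tfam and Ppargc1a did not pass (0.12 and 0.05). In FAH liver and YAP1on tumors the means of mt-Nd4l were 1455 and 28796. The nuclear list summed to 122250.0 to 168170.3 in hbHep and 64719 to 83769.5 in the day 6 tumors. In FAH liver it summed to 202965 to 285884 and in YAP1on tumors to 46038 to 66784. The mitochondrial list summed to 864167 to 933263 in hbHep and 1527363 to 1830543 in the day 6 tumors. Its sums were 1185852 to 1509525 in FAH liver and 847951 to 1587877 in YAP1on tumors. The parts of strain, of the assignment of reads and of differences between libraries were not tested.

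**Figure D5:**
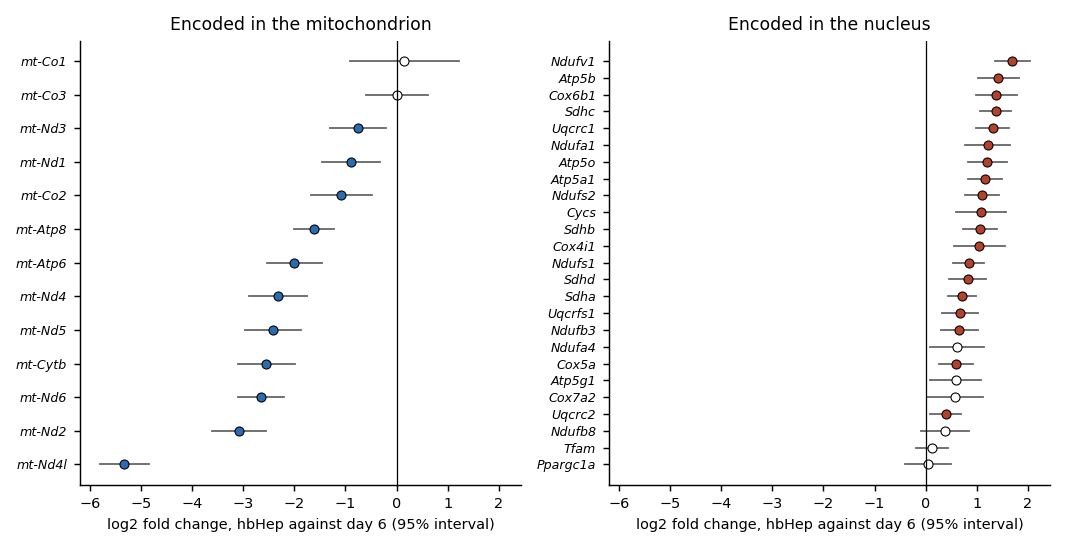
Log2 fold change of hbHep against day 6 tumors (x axis, points, with 95% intervals as bars) for the mitochondrially encoded genes (left) and the nuclear respiratory chain genes (right), red where higher, blue where lower and white where the test did not pass. Mitochondrial genes lie left of 0 except mt-Co1 and mt-Co3, and nuclear genes lie right of it.

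Of 24 fatty acid oxidation genes 16 were higher and 0 lower (0 by limma at an unadjusted p under 0.05), with a median log2 fold change of 0.90. Acaa1b, a peroxisomal thiolase, was at 21590.1, 16644 and 29609 in hbHep mice 1, 2 and 3 and 4512, 5539, 3736 and 4573 in day 6 tumors 1 to 4 (log2 fold change 2.27 ± 0.21 (SE), adjusted p = 6.36e-07). Ehhadh, the peroxisomal bifunctional enzyme, was at 21499 to 24172 in hbHep and 7126 to 10138 in the tumors (log2 fold change 1.48 ± 0.18 (SE), adjusted p = 9.59e-06), and Acadm, the mitochondrial medium-chain dehydrogenase, at 5166 to 5446 in hbHep and 2168 to 2722 in the tumors (log2 fold change 1.13 ± 0.15 (SE), adjusted p = 3.03e-05). Cpt1a, the gate of mitochondrial import, did not pass (-0.11). In fatty acid synthesis and storage 9 of 22 were higher and 3 lower, with Scd2, a stearoyl-CoA desaturase, at 4157, 5042 and 8142 in hbHep mice 1, 2 and 3 and 329, 489, 472 and 343 in day 6 tumors 1 to 4 (log2 fold change 3.78 ± 0.24 (SE), adjusted p = 1.05e-08), and Fabp4, a fatty acid carrier of adipocytes and endothelium, the lowest (log2 fold change -1.41 ± 0.22 (SE), adjusted p = 1.13e-04). Cholesterol synthesis genes had 3 of 24 higher and 5 lower (12.5% and 20.8%), both under the 24.1% and 21.7% over all genes. Mvk, mevalonate kinase, was higher (log2 fold change 0.73 ± 0.19 (SE), adjusted p = 0.00622) and Sc5d, a late desaturase, had the largest fall (log2 fold change -1.38 ± 0.25 (SE), adjusted p = 4.29e-04). Fatty acid oxidation and ketone genes lower in hbHep numbered 1 without hbHep mouse 2. Cholesterol synthesis higher in hbHep numbered 1 without hbHep mouse 1 or tumor 1 or tumor 4 and 6 without hbHep mouse 2. Cholesterol synthesis lower in hbHep numbered 8 without hbHep mouse 1 and 2 without hbHep mouse 2. Quantile normalization gave 2 lower fatty acid oxidation genes and 8 lower cholesterol genes, and values without rescaling gave 5 higher cholesterol genes.

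Of 21 glycolysis genes 8 were higher and 3 lower. Tpi1, triose phosphate isomerase, was higher by 1.35 and Pgk1, phosphoglycerate kinase, by 1.16 (adjusted p = 4.57e-06 and 4.42e-05), and Pkm, the pyruvate kinase of growing tissue, did not pass (0.30). Gluconeogenesis and glycogen genes were split evenly, 7 higher and 7 lower of 18. Gys2, glycogen synthase, was at 2855 to 4896 in hbHep and 1048 to 1359 in the tumors (log2 fold change 1.81 ± 0.18 (SE), adjusted p = 1.70e-06), and Ppp1r3b, the glycogen-targeting subunit of its phosphatase, at 1166 to 3007 in hbHep and 8789 to 10611 in the tumors (log2 fold change -2.31 ± 0.25 (SE), adjusted p = 3.49e-06). Gluconeogenesis and glycogen lower in hbHep numbered 3 without hbHep mouse 2 and 4 without tumor 1 or tumor 4. Glycolysis and growth isozymes lower in hbHep numbered 5 without hbHep mouse 1.

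Markers of blood and stromal cells were mostly lower. All 13 neutrophil markers tested were lower (median log2 fold change -2.90), and the list summed to 330.5 to 559 in hbHep and 1444 to 4223 in the day 6 tumors. S100a8, a neutrophil calcium-binding protein, was at 50.6, 31.9 and 23.9 in hbHep mice 1, 2 and 3 and 379, 682, 201 and 378 in day 6 tumors 1 to 4 (log2 fold change -3.43 ± 0.48 (SE), adjusted p = 4.81e-05), with tumor 2 the highest. Ngp, a neutrophil granule protein, had the largest fall, at 11.6 to 20.9 in hbHep and 253 to 1005 in the tumors (log2 fold change -4.59 ± 0.51 (SE), adjusted p = 5.02e-06). T, NK and B cell markers were lower in 11 of 18, with Cd8b1, a chain of the CD8 receptor, the lowest (log2 fold change -1.89 ± 0.30 (SE), adjusted p = 1.47e-04) and Nkg7 at 16.1 to 29.8 in hbHep and 65.2 to 91.2 in the tumors (log2 fold change -1.85 ± 0.30 (SE), adjusted p = 1.74e-04). Of 25 stellate cell, fibroblast and matrix genes 15 were lower and 0 higher (0 by limma at an unadjusted p under 0.05), and the list summed to 30414 to 39519 in hbHep and 44990.4 to 71162 in the day 6 tumors. Col3a1, a fibrillar collagen, was at 232, 82.0 and 209.5 in hbHep mice 1, 2 and 3 and 583, 897, 683 and 575 in day 6 tumors 1 to 4 (log2 fold change -2.08 ± 0.30 (SE), adjusted p = 5.34e-05), whereas Pdgfrb of stellate cells did not pass (-0.28). Lox, a collagen crosslinking enzyme, was the lowest (log2 fold change -2.81 ± 0.40 (SE), adjusted p = 5.28e-05). T, NK and B cell markers higher in hbHep numbered 1 without hbHep mouse 2. Stellate cell, fibroblast and matrix genes higher in hbHep numbered 1 without tumor 2.

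Macrophage and endothelial markers were less one-sided. Of 22 macrophage markers 3 were higher and 8 lower, and their sums overlap, at 17173 to 42441 in hbHep and 26465 to 33909 in the day 6 tumors. Lyz2, lysozyme of myeloid cells, was at 4763, 1186 and 1743 in hbHep mice 1, 2 and 3 and 5359.9, 5715, 8780.1 and 6980.4 in day 6 tumors 1 to 4 (log2 fold change -1.62 ± 0.40 (SE), adjusted p = 0.00433), and Gpnmb, a glycoprotein of lipid-laden macrophages, at 611, 3415 and 296 in hbHep mice 1, 2 and 3 and 55.3, 106, 111 and 104 in day 6 tumors 1 to 4 (log2 fold change 3.22 ± 0.55 (SE), adjusted p = 2.66e-04), with mouse 2 far the highest. With mouse 2 left out, the log2 fold change of Gpnmb was 2.22. Without hbHep mouse 3 the log2 fold change of Gpnmb was 3.98. The Kupffer cell genes Clec4f and Timd4 did not pass (0.54 and -0.03). Of 20 endothelial markers 1 was higher, Flt4, a receptor of vessel growth factors (log2 fold change 0.83 ± 0.19 (SE), adjusted p = 0.00242), and 6 were lower. Emcn, endomucin, was at 105 to 156 in hbHep and 386 to 515 in the tumors (log2 fold change -1.89 ± 0.16 (SE), adjusted p = 2.58e-07), and the sinusoidal receptor Stab2 did not pass (-0.08). Macrophage and Kupffer cell markers lower in hbHep numbered 13 without hbHep mouse 1 and 5 without hbHep mouse 2 or hbHep mouse 3. Endothelial markers lower in hbHep numbered 3 without hbHep mouse 3. Red blood cell precursor genes were lower in 5 of 12, with 0 higher (0 by limma at an unadjusted p under 0.05), and the list summed to 12833 to 28113 in hbHep and 36055 to 95074 in the day 6 tumors. Hbb-bt had the largest fall, at 206 to 605 in hbHep and 2879 to 7584 in the tumors (log2 fold change -3.64 ± 0.42 (SE), adjusted p = 7.39e-06).

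Several extreme differences lay in genes with near-identical copies. Rps3a2 was at 4553, 3866 and 4265 in hbHep mice 1, 2 and 3 and 2.66, 2.18, 0.00 and 0.00 in day 6 tumors 1 to 4 and Eno1b at 6782, 7871 and 7822 in hbHep mice 1, 2 and 3 and 7.39, 5.52, 9.26 and 7.35 in day 6 tumors 1 to 4, copies of a ribosomal protein gene and of enolase. Rps13 was at 268, 314 and 199 in hbHep mice 1, 2 and 3 and 6596, 4932, 5760.1 and 8209 in day 6 tumors 1 to 4, and among 25 ribosomal protein genes, 11 higher and 3 lower, Rpl3 and Rplp0 had log2 differences of -3.72 and -3.68 and Rpl8 one of 0.86. Under quantile normalization 2 ribosomal protein genes were higher. Ribosomal protein genes higher in hbHep numbered 7 without hbHep mouse 1 or tumor 3 and 6 without tumor 2. In FAH liver the means of Rps3a2, Eno1b, Rps13, Rpl3 and Rplp0 were 5995, 8624, 355, 469.7 and 816, and in YAP1on tumors 1.44, 10.9, 10300.2, 8479 and 12822. Thus hbHep stood near FAH liver and the day 6 tumors near the YAP1on tumors. The split of reads among copies is uncertain for each of these genes, and the part of strain in it was not tested.

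Among the largest rises outside the lists, Ren1 (ENSMUSG00000070645), renin of kidney and some other tissues, was at 2115, 1761 and 1661 in hbHep mice 1, 2 and 3 and 19.7, 18.1, 15.1 and 18.8 in day 6 tumors 1 to 4 (log2 fold change 6.61 ± 0.21 (SE), adjusted p = 3.03e-12). All 3 mice lay close together and far above the tumors. Its mean was 11.7 in YAP1on tumors and 76.2 in FAH liver.

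Clock genes divided the hbHep mice. Of 19 tested 7 were higher and 4 lower. Dbp, a clock output factor, was at 3027, 117 and 3751 in hbHep mice 1, 2 and 3 and 138, 189, 180.1 and 177 in day 6 tumors 1 to 4, with mouse 2 at the level of the tumors and mice 1 and 3 far above (log2 fold change 2.69 ± 0.80 (SE), adjusted p = 0.0122). Arntl, the core activator BMAL1, whose rhythm runs opposite to that of Dbp, was at 95.4, 997 and 98.7 in hbHep mice 1, 2 and 3 and 912, 812, 993 and 813 in day 6 tumors 1 to 4, with mouse 2 again at the tumor level (log2 fold change -2.05 ± 0.56 (SE), adjusted p = 0.00727). Without mouse 1 or mouse 3 the adjusted p of Dbp was 0.0753 and 0.0807. The time of day of sampling is not given in the labels, and its part was not tested. Dbp and Arntl had log2 fold changes of 4.30 and -3.17, in that order, when hbHep mouse 2 was left out. Leaving out mouse 1 gave a log2 fold change of 1.96 for Dbp. With mouse 3 left out, the log2 fold change of Dbp was 1.81. Circadian clock genes higher in hbHep numbered 4 without hbHep mouse 1 and 3 without hbHep mouse 3.

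Iron genes and junction genes close the account. Of 16 iron handling genes 8 were higher and 3 lower. Ftl1 and Fth1, the ferritin chains that store iron and are NRF2 targets too, were higher by 1.98 and 1.01 (adjusted p = 3.62e-05 and 0.00202), and Hamp2, a hepcidin copy, was at 164, 57.1 and 264 in hbHep mice 1, 2 and 3 and 1951, 3532, 2199.5 and 3369 in day 6 tumors 1 to 4 (log2 fold change -4.29 ± 0.42 (SE), adjusted p = 1.42e-06), while Hamp, hepcidin itself, did not pass (0.81), although without hbHep mouse 2 the adjusted p of Hamp was 0.00111 and without tumor 2 the adjusted p of Hamp was 0.0346. Without hbHep mouse 2 the log2 fold change of Hamp2 was -3.68. Canalicular and junction genes were lower in 6 of 16 and higher in 2, with Cgn, cingulin of tight junctions, at 571 to 777 in hbHep and 1196 to 1465 in the tumors (log2 fold change -1.02 ± 0.18 (SE), adjusted p = 3.01e-04) and Ceacam1, an adhesion gene of the canaliculus, at 914 to 1314 in hbHep and 2269 to 3208 in the tumors (log2 fold change -1.24 ± 0.19 (SE), adjusted p = 1.21e-04). Abcb1a, an efflux pump, was at 503 to 892 in hbHep and 258 to 341 in the tumors (log2 fold change 1.18 ± 0.27 (SE), adjusted p = 0.00215). Of 20 chaperone genes of the endoplasmic reticulum 5 were higher and 3 lower (25% and 15%, against 24.1% and 21.7% over all genes). Hspa5, the main chaperone of this compartment, did not pass (-0.17). P4hb, a disulfide isomerase subunit, had the largest rise (log2 fold change 1.06 ± 0.13 (SE), adjusted p = 1.55e-05) and Pdia3, another isomerase, the largest fall (log2 fold change -0.97 ± 0.14 (SE), adjusted p = 4.10e-05). Endoplasmic reticulum chaperones higher in hbHep numbered 3 without hbHep mouse 1 or tumor 1 or tumor 3 or tumor 4 and 8 without hbHep mouse 2 and 2 without hbHep mouse 3. Quantile normalization turned the balance, with 2 chaperones higher and 6 lower.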

How the data were processed

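RNA-seq of 17 libraries and accessible intervals of 3 ATAC-seq libraries were used. Per the submitters' processing notes, kallisto 0.45.0 and sleuth were used, with GRCm38.p6 for RNA, and the authors deposited 1 signal per gene and library. It is read as scaled reads per base from the name the authors gave the table, with their scaling between libraries not given in the sources used here, so read depth is unknown. The deposited signal summed to 22356298 to 26448654 a mouse in hbHep and 19611967 to 22648995 in the tumors. Kallisto divides reads that several transcripts share, so values of near-identical genes are uncertain. The deposited ATAC-seq intervals are on mm10, and the program that made them is not given in the sources used here.

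Libraries were rescaled by median of ratios, and the technical libraries of a mouse were averaged. Genes at 10 or more in at least 3 of 14 samples were kept (17958 of 36555). Log2(abundance + 1) was fitted with limma 3.58.1 (lmFit, eBayes with trend, R 4.3.3) in 1 model of the 4 RNA groups. The contrast was hbHep minus day 6 tumor, two-sided, with Benjamini-Hochberg adjusted p under 0.05 over all genes. Fold changes are on the log2(abundance + 1) scale and understate those of genes near 0. An exact two-sided permutation test over samples was added for Yap1, Ctnnb1 and Fah. Tables were handled in Python 3.11.15 with pandas 2.3.3 and NumPy 2.4.6, and the fit was tested on simulated data.

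Members and gene lists were chosen with earlier results of these data known. Named genes were the 14 largest rises and 14 largest falls with non-overlapping groups, a mean of at least 1000 and each value at least 100 in the higher group, then Yap1, Ctnnb1 and Fah, the extreme passing and the defining members of each of 47 lists, and genes with the widest gaps between technical libraries. Other genes were named after their values were seen, and some genes that the rule selects are not reported here. Promoters are from RefSeq, GRCm38.p6. Alternatives were a pseudocount of 10, no filter, no rescaling, quantile normalization, only the 7 samples compared, single technical libraries, a replicate block, and leaving out each sample.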

Additional observations from a re-analysis of the deposited data

Results flagged for a closer look

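Among the tumors, 14 of 216 genes named here and tested (6.48%) had 1 sample apart from the other 3, with a gap to the nearest sample past Dixon's critical value as a share of the range. Chance flags about 1 in 20 groups. The sample was tumor 1 for 1 gene, tumor 2 for 5, tumor 3 for 3 and tumor 4 for 5.

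Tumor 2 stood apart with an abundance of 45.5 for Ccnb2 (gap 0.952 of the range), 173 for Mcm5 (0.934), 5109 for Lbp (0.851), 1528 for Taldo1 (0.864) and 386 for Emcn (0.953). Tumor 3 stood apart with 730.4 for Orm2 (0.843), 6535 for Spp1 (0.830) and 2819 for Gclm (0.832). Tumor 4 stood apart with 3.03 for Duoxa1 (0.907), 581 for Pcna (0.830), 424 for Usp18 (0.882), 62.9 for Cd8b1 (0.893) and 60659.8 for Ftl1 (0.881), and tumor 1 with 55.3 for Gpnmb (0.897). Leaving out the tumor that stood apart changed the call of none of these 14 genes. The hbHep group has 3 mice and is too small for this rule.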

How the results depend on the processing

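The number of genes higher in hbHep was 4334 and lower 3895, and each stayed within 1.5 times of that under every alternative run. The lowest and highest without 1 sample were 3827 to 4020 higher and 3337 to 3525 lower. Without rescaling 5039 were higher and 3127 lower (61.7% of calls higher against 52.7%), and the median of all genes moved from -0.02 to 0.08. With quantile normalization 4089 were higher and 4433 lower. Ctnnb1 and Fah stayed lower and past the threshold in all alternatives. Yap1 passed in none, and its log2 fold change, -0.06 with all samples, was 0.04 without rescaling and 0.07 without hbHep mouse 1. Of 523 listed genes that passed, 2 lost their call with a pseudocount of 10, 36 without rescaling, 36 with quantile normalization, 46 without a filter and 65 without hbHep mouse 2. Nr1d2 of the clock, which did not pass with all samples (-0.09), passed as higher without hbHep mouse 2 (0.35). Without single samples its log2 fold change ran from -0.32 to 0.35. The cause was not tested.

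The numbers in the labels do not pair hbHep mice with tumors, since the 4 tumors come from 1 mouse of another genotype. Same-numbered samples correlated at -0.085, -0.070 and -0.037 in their deviations from the group means. Such deviations balance out within each group, so these correlations cannot test pairing. With the replicate block, 3335 genes were higher and 2717 lower of 16994, and 105 of 517 listed calls were lost. Under the block plasma protein genes numbered 0 higher and 7 lower, interferon genes 8 lower, macrophage markers 3 lower and DNA replication genes 7 higher. The 4 tumors of 1 mouse limit what a p-value here says about mice, and read depth behind low values is unknown.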
